A study of Mus musculus with 24 samples.

Results

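The comparison covered 12 of the 24 kidney RNA sequencing libraries of the series: 6 from mice that lacked megalin in the proximal tubule and 6 from wild-type mice, all taken after 12 weeks of Western diet. The libraries were chosen by title (KO_WD12 replicates 1 to 6 against WT_WD12 replicates 1 to 6), and every gene with enough counts in these 12 libraries was tested. Per the series record, the knockout mice lacked LRP2 (megalin) specifically in proximal tubule cells and the wild types were their littermates. The labels write the genotypes as PTC LRP2-SM22 -/- and +/+, without saying what SM22 denotes, which promoter drove the deletion, or the age of the mice. Every group received the Western diet, the wild types included, so the comparison held diet constant and no kidney on another diet was measured. The other 12 libraries, of the same genotypes after 2 weeks of the diet, entered only the test of whether the genotype effect differed with duration. Whether each library is a different animal is not in the labels, so the p-values speak only to the spread among these samples, which may be technical.

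Megalin is a very large receptor on the apical surface of proximal tubule cells, where it drives endocytosis. Together with cubilin, amnionless and the adaptor Dab2 it takes filtered proteins out of the tubule fluid, among them albumin and the carriers of vitamin D, retinol and cobalamin, and hands them to endosomes and lysosomes. The proximal tubule makes up much of the kidney cortex and is the nephron segment most prone to injury, after which its cells may lose transporters and enzymes, switch on injury genes and signal to immune cells and fibroblasts.

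The 12 libraries held 11327983 to 15236159 counts each. Levels are given as counts scaled to a common library size (CPM), and fold changes are knockout over wild type on the log2 scale. Their standard error (SE) is approximate, derived as the size of the fold change over the square root of the F value of its test. The number n was 6 libraries a group throughout. Of 15443 genes tested with edgeR, 6347 (41.1%) were called at an adjusted p under 0.05, 3351 of them higher in the knockout (21.7%) and 2996 lower (19.4%). The higher calls were the larger ones: 1503 genes rose by at least 1 on the log2 scale (9.73%), and 130 fell by as much (0.842%). The groups did not overlap for 2973 genes (19.3%), 1800 higher (11.7%) and 1173 lower (7.6%). The counts for gene lists below are to be read against these shares. They cover only members that passed the filter on low counts. Genes near 0 in wild types passed it only through the knockouts, so the filter in part sets the shares higher. The median log2 fold change of all genes tested was -0.01. Because whole kidneys were sequenced, fewer cells of a type and less RNA per cell cannot be told apart. Proximal tubule markers were abundant in every library (summed transporter list 9688 to 22219 CPM), whereas markers of the neighbouring adrenal cortex summed to at most 6.06 CPM, of skeletal muscle to at most 2.9 CPM and of red blood cells to at most 65.7 CPM. How the counting treated strand was not given, and 6723 of the 15443 genes overlap an annotated gene on the opposite strand. Of the genes named below Acat3, Adrb3, Cd72, Foxp3, G6pdx, H2-DMa, Icam1, Lipe, Mmp7, Slc13a2os, Timp3 and Tnfrsf18 share over 10% of their exon bases in this way, so their counts are uncertain to that extent.

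Lrp2 itself (ENSMUSG00000027070, mm10 chromosome 2, 69424340 to 69586065, minus strand) had levels of 1343, 1619, 1597, 1733, 2005 and 2326 CPM in wild-type libraries 1 to 6 and 344, 179, 376, 320, 298 and 358 CPM in knockout libraries 1 to 6. All 6 knockout libraries lay far below all 6 wild types, and knockout library 2 was the lowest. The mean was 1770 ± 347 CPM (SD, n = 6) in wild types and 313 ± 71 CPM in knockouts, 0.177 times the wild-type mean, and the log2 fold change was -2.50 (SE 0.18, edgeR adjusted p = 4.4e-07). The libraries thus matched their labels.

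Of 18 tested genes of apical endocytosis, 10 were lower and 2 higher, with a median of -0.23. Beside Lrp2 the smallest adjusted p values were those of Amn, which encodes the membrane anchor of cubilin (log2 fold change -0.57, SE 0.10), and of Myo6, a motor that moves endocytic vesicles along actin (-0.45, SE 0.09). Dab2, the adaptor on the cytoplasmic tail of megalin, fell by 0.53. Cubn, the partner receptor, ranged from 253 to 512 CPM in wild types and from 167 to 332 CPM in knockouts. The Cubn groups overlapped, its log2 fold change was -0.49 (SE 0.18, edgeR adjusted p = 0.0457), and the call held in only 3 of the 12 fits that left out 1 library. Arrb1, an arrestin that links receptors to clathrin, rose by 0.21.

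**Figure D1:**
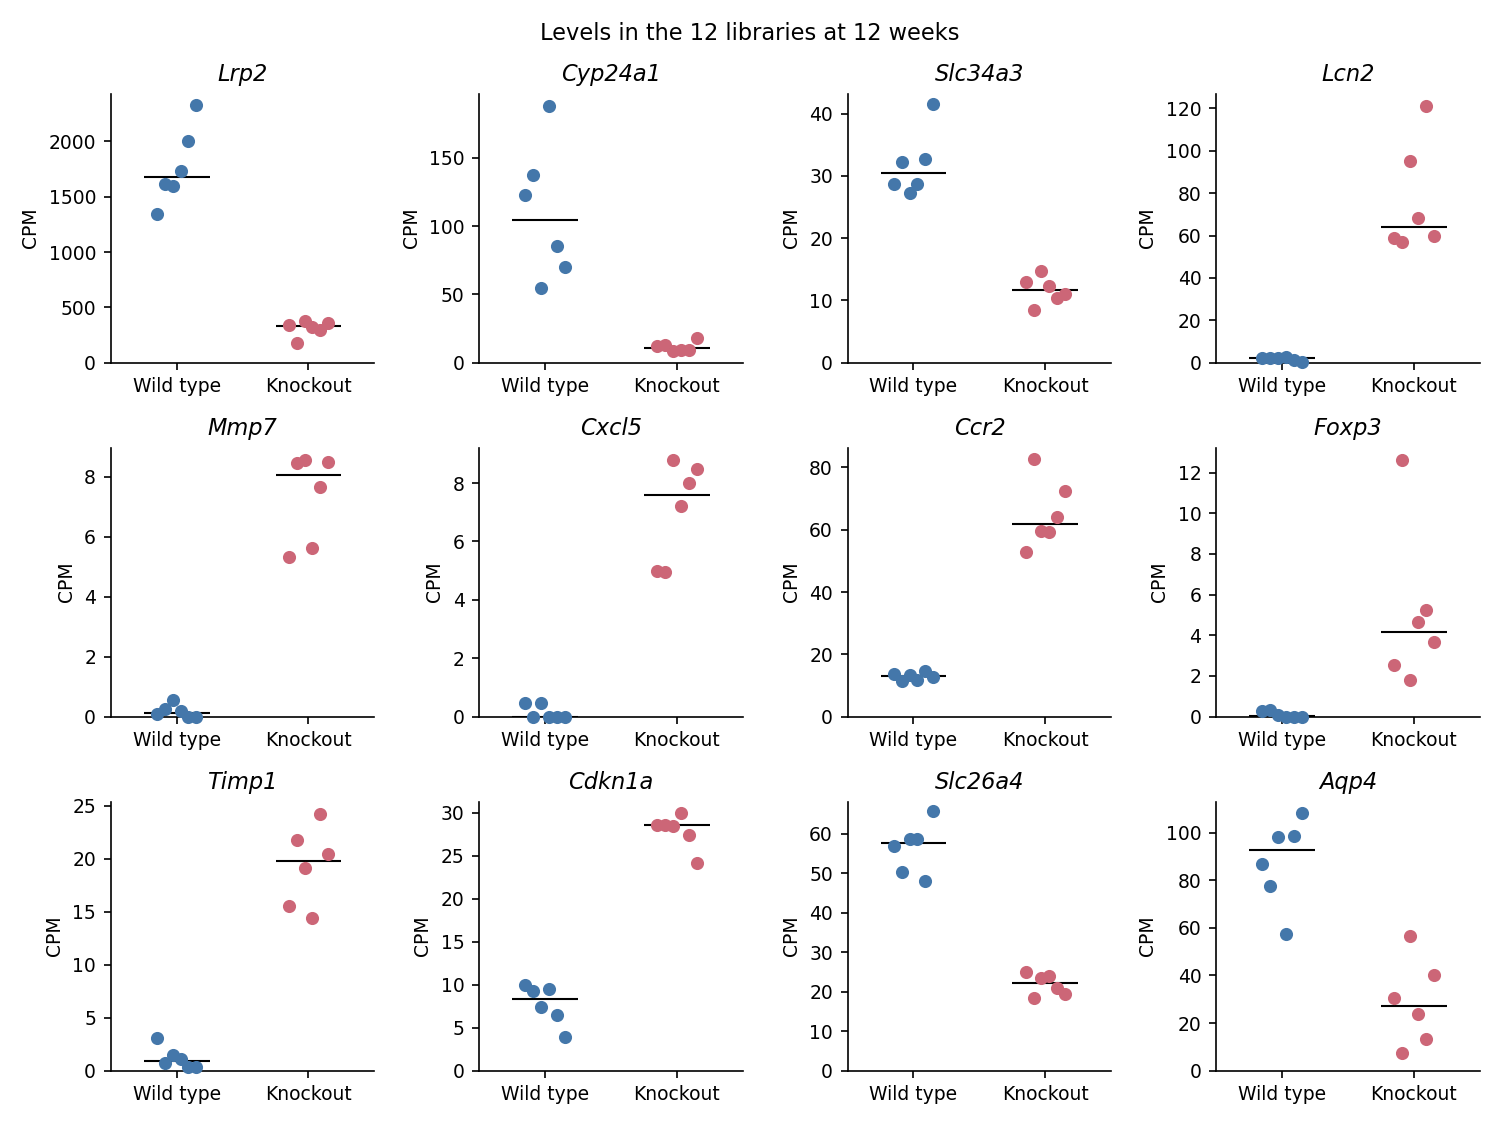
Levels of 12 genes in CPM (vertical axes, linear, from 0) in the 6 wild-type libraries (blue) and the 6 knockout libraries (red) at 12 weeks. Each point is 1 library and the line is the group median. The groups do not overlap for any of the 12 genes shown, and Foxp3 has 1 knockout library at 12.6 CPM, well above the other 5.

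The transport and metabolic genes of the proximal tubule fell together. Of 35 tested transporters, 29 were lower and 1 higher (median -0.60), and of 32 tested enzymes 25 were lower and none higher (median -0.58). The summed level of the enzyme list was 60621 to 70720 CPM in wild types and 34531 to 53356 CPM in knockouts, so every knockout library lay below every wild type.

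Among the transporters, Slc34a3, a sodium-phosphate cotransporter of the brush border, fell the furthest: 27.3 to 41.6 CPM in wild types (median 30.5) against 8.54 to 14.8 CPM in knockouts (median 11.7). The groups were fully apart, with a log2 fold change of -1.45 (SE 0.13, edgeR adjusted p = 2.7e-06). Slc34a1, the main phosphate cotransporter of this segment, had medians of 4887 and 2962 CPM and fell by 0.82. Slc22a30, a member of the organic anion transporter family, fell by 0.95 and Slc22a2, which carries organic cations in from the blood side, by 0.62. The neutral amino acid transporter Slc6a19 fell by 1.09. The transporter that went the other way was Slc13a1, which reabsorbs sulfate: wild types had 255 to 355 CPM and knockouts 291 to 518 CPM. These groups overlapped, and Slc13a1 rose by 0.45 (SE 0.12, edgeR adjusted p = 0.00991).

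Among the enzymes, Acy3, an aminoacylase that deacetylates mercapturic acids, went from a median of 1907 CPM in wild types to 969 CPM in knockouts, and the groups were apart (log2 fold change -0.87, SE 0.11, edgeR adjusted p = 3.4e-05). Cyp4b1, a cytochrome P450, fell from a median of 2936 to 1498 CPM and Acsm2, an acyl-CoA synthetase of medium-chain acids, from 6013 to 3483 CPM (-0.83). The nephron transcription factors followed with 10 of 20 tested lower and 2 higher (median -0.33). Lhx1 (-0.56), Maf (-0.67) and Esrra (-0.41) fell, as did Hnf4a (-0.53), which drives proximal tubule identity, while Irx2, a factor of the distal nephron and the loop of Henle, rose by 0.46.

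Genes of vitamin D, calcium and phosphate moved in both directions. Of 20 tested, 8 were lower and 6 higher, with 11 of the 20 showing no overlap between groups. Cyp24a1, the enzyme that inactivates vitamin D hormone, had the lowest fold change of all genes named here: 123, 137, 54.8, 188, 85.4 and 70 CPM in wild-type libraries 1 to 6 and 11.9, 12.8, 8.62, 9.63, 8.92 and 18.3 CPM in knockout libraries 1 to 6. The wild types were widely spread, yet the highest knockout stayed below the lowest wild type. The knockout mean was 0.107 times that of the wild types (log2 fold change -3.23, SE 0.32, edgeR adjusted p = 2.6e-05). Cyp27b1, the enzyme that makes vitamin D hormone, moved in the opposite direction, from 0.837 to 4.44 CPM in wild types to 4.86 to 9.97 CPM in knockouts, a rise of 1.36. The receptor Vdr fell by 0.69 (median 251 to 164 CPM) and Kl, the Klotho co-receptor for the phosphate hormone FGF23, by 0.73. Slc34a2, a phosphate cotransporter better known from lung and intestine, rose from a median of 3.42 to 12 CPM (1.85, SE 0.21, edgeR adjusted p = 2e-05), while Slc34a1 and Slc34a3 fell. Trpv6, an epithelial calcium channel, rose by 1.53.

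Genes of tubule injury and failed repair rose: 30 of 31 tested were higher and none lower, with a median of 1.86, and 28 of the 31 showed no overlap. The summed level of the list was 1088 to 1305 CPM in wild types and 4155 to 7365 CPM in knockouts. Lcn2, which encodes the iron-carrier-binding protein NGAL released by injured tubules, had 2.32, 2.32, 2.15, 2.67, 1.25 and 0.545 CPM in wild-type libraries 1 to 6 and 59, 56.8, 95.2, 68.3, 121 and 60 CPM in knockout libraries 1 to 6. Its mean was 40.9 times higher in knockouts (log2 fold change 5.36, SE 0.31, edgeR adjusted p = 4.2e-07), with libraries 3 and 5 the highest. Havcr1, the gene of kidney injury molecule 1, had medians of 2.04 and 73.3 CPM and rose by 4.27 (SE 0.63), with wild-type library 2 at 16.3 CPM above the other wild types. Spp1, encoding osteopontin, rose from a median of 364 to 2261 CPM. Krt18, a keratin of simple epithelia, rose by 1.82 (SE 0.13). Krt20, a keratin of urothelium and gut, rose by 4.42. Itgb6, an integrin chain, was the member that did not pass the test: 46.3 to 81.9 CPM in wild types and 38.7 to 81.3 CPM in knockouts, with a log2 fold change of -0.18.

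The genes with the largest fold changes were nearly silent in wild types. Gabrp, a GABA receptor subunit found in epithelia, had at most 0.186 CPM in wild types and 1.66 to 13.3 CPM in knockouts (log2 fold change 6.63, SE 0.76). Muc4, a membrane mucin, had at most 0.279 CPM in wild types and 4.52 to 11 CPM in knockouts (6.13, SE 0.53). Lgi2, a secreted leucine-rich repeat protein, rose by 5.81. Fcrls, a scavenger receptor of macrophage lineage cells, rose by 4.87. These genes were chosen for groups that do not overlap, and with so few wild-type counts their fold changes depend on the prior count of the fit. At the other end, after Cyp24a1 and Lrp2, came F5, coagulation factor V (-2.10), Nepn (-2.09), Ctxn3 (-2.07), Tldc2 (-1.95), Hrg, which encodes histidine-rich glycoprotein (-1.89), the collagen chain Col19a1 (-1.84), the water channel Aqp4 (-1.62) and Klkb1, plasma prekallikrein (-1.54). Of these 8 genes, all but Aqp4 had wild-type medians of at most 13.2 CPM.

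**Figure D2:**
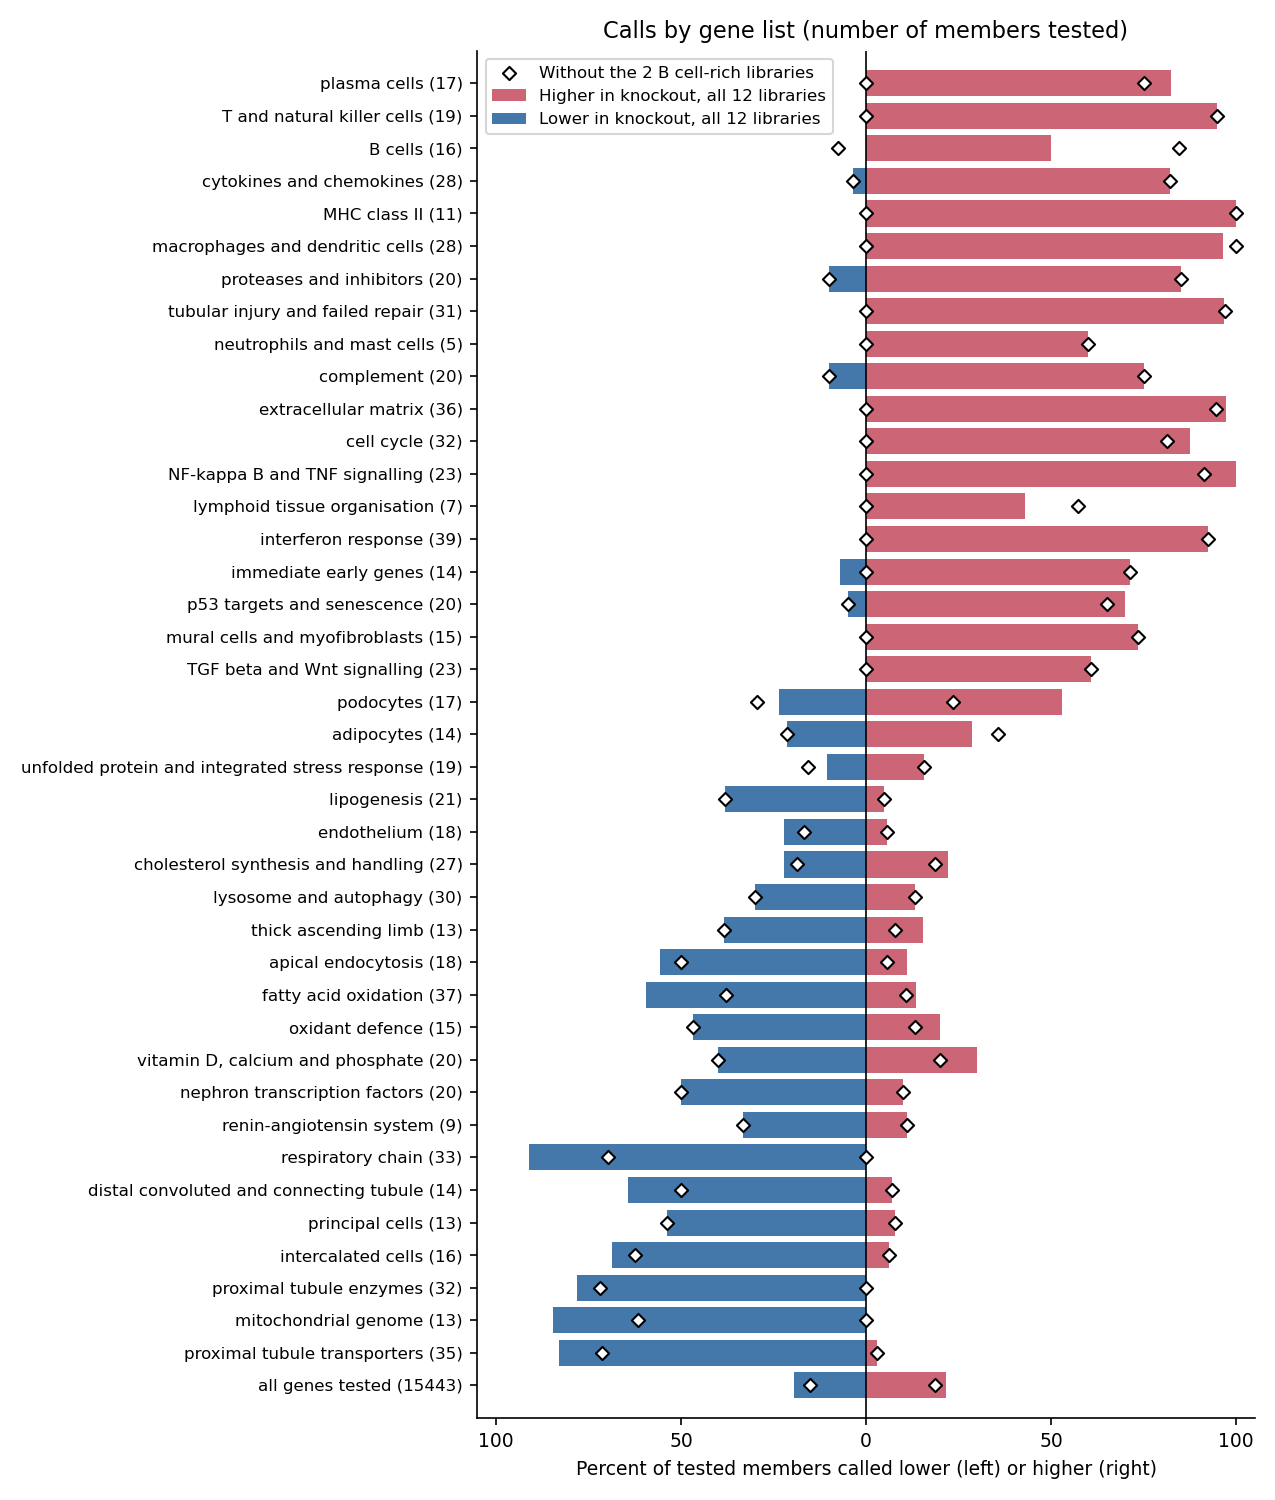
Share of tested members called lower (bars to the left, blue) or higher (bars to the right, red) in knockouts at 12 weeks, in percent, for each gene list with 5 or more tested members and, in the bottom row, all 15443 genes. Open diamonds give the same shares without wild-type library 1 and knockout library 2, the libraries rich in B cell RNA. Injury, immune and matrix lists lie to the right, tubule and mitochondrial lists to the left, and the diamonds of B cells and podocytes lie farthest from their bars.

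Genes of inflammatory signalling were mostly higher. Of 37 cytokines and chemokines 28 passed the filter on low counts, 23 of them higher and 1 lower (median 2.14). All 23 tested genes of NF-kappa B and TNF signalling were higher (median 1.30). Cxcl5, a neutrophil-attracting chemokine, had 0 CPM in 4 wild-type libraries and 0.465 and 0.467 CPM in the other two, against 4.99, 4.97, 8.78, 7.2, 8.01 and 8.47 CPM in knockout libraries 1 to 6. All knockouts were thus well above the wild types. Cxcl5 rose by 5.49 (SE 0.54, edgeR adjusted p = 6.9e-06). Il1f6, which encodes the epithelial cytokine interleukin 36 alpha, was at or below 0.166 CPM in wild types and between 1.4 and 4.9 CPM in knockouts (5.85). Lif, a cytokine of the interleukin 6 family, rose by 2.96 with a narrow error (SE 0.21), from a median of 0.685 to 5.61 CPM. Ccl28, an epithelial chemokine, was the member that fell, from a median of 55.3 to 23.4 CPM with overlapping groups (-1.45, SE 0.39, edgeR adjusted p = 0.0125). In the NF-kappa B list, Relb, a subunit of the factor itself, rose by 1.68 (SE 0.12), Birc3, an inhibitor of cell death, by 1.28 (SE 0.09) and Icam1, an adhesion molecule for leukocytes, by 1.30 (SE 0.09). The Birc3 groups were compact and apart, at 11.9 to 15.7 and 30.2 to 40.4 CPM.

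Promoter windows of these genes are shown because several inflammatory genes that rose together carry the same short motif. The windows are the 250 bases before the annotated start of the gene (RefSeq, GRCm38.p6, read on the strand of the gene), and capitals mark matches on either strand to the NF-kappa B motif in the first pair (GGG and TTTCC with any 2 bases between them) and to the interferon-stimulated response element in the last (2 copies of TTTC with any 2 bases between them). Cxcl1 lies at chr5:90890995-90891244 (plus strand), Cxcl2 at chr5:90903649-90903898 (plus strand) and Isg15 at chr4:156200819-156201068 (minus strand).
Cxcl1: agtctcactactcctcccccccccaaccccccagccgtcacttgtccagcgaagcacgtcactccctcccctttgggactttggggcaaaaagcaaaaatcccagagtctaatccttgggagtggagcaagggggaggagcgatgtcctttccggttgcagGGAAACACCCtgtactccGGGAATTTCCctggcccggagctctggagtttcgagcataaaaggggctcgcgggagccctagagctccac
Cxcl2: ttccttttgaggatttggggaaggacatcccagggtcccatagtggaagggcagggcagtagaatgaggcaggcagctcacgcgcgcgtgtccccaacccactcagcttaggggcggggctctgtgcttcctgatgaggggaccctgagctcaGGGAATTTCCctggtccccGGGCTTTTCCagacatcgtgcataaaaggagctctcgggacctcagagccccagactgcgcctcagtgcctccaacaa
Isg15: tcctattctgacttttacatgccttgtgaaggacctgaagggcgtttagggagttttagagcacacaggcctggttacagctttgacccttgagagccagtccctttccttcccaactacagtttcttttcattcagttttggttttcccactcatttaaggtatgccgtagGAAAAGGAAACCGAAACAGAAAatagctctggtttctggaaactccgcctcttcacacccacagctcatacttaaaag
Cxcl1 and Cxcl2 each held 2 matches and Isg15 3 that overlap one another.

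Of 11207 tested genes with such a window, 1.81% held the NF-kappa B motif in at least 1 window, and the share was 2.71% of the 2473 genes that rose and 1.47% of the 2249 that fell. In the cytokine and chemokine list 5 of 21 members with a window held it (23.8%), and in the NF-kappa B list 4 of 18 (22.2%). The interferon element was in 3.44% of all genes' windows, in 5.78% of those that rose, in 2.71% of those that fell and in 14 of 28 members of the interferon list (50%). These are counts of letters in a short window and say nothing of binding. Cxcl1 itself, a neutrophil chemokine, rose from a median of 1.55 to 9.32 CPM (log2 fold change 2.52, SE 0.26), and Cxcl2, a close relative of it, by 3.64.

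The interferon list was higher in 36 of 39 tested genes, with a smaller median of 1.09. H2-K1 and H2-D1, which present peptides to killer T cells, rose by 1.03 and 0.89, and Gbp3, a guanylate-binding protein, by 1.33 (SE 0.20). Isg15, a ubiquitin-like modifier, was at 2.02 to 4.23 CPM in wild types and 5.8 to 17.4 CPM in knockouts. Knockout library 2 was the highest of the 12 for all 4 of these genes, and without it and wild-type library 1 the median of the list was 0.91 with 36 genes higher. Complement genes were higher in 15 of 20 tested and lower in 2. C4b, the fourth component, rose by 2.83 (medians 6.67 and 50.4 CPM), C6, a part of the membrane attack complex, by 3.27 and Cfi, the factor that cleaves C3b and C4b, by 3.05 (SE 0.23). C1rl, a protease related to C1r, fell by 0.61. C3, the central component, had 82.3 CPM in wild-type library 1 and 10.8 to 23.7 CPM in the other wild types, against 188 to 375 CPM in knockouts.

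Markers of macrophages and dendritic cells rose in 27 of 28 tested genes (median 1.99, 25 without overlap), and all 11 genes of MHC class II were higher (median 2.02). Ccr2, the receptor that brings monocytes out of the blood, was at 13.6, 11.5, 13.3, 11.9, 14.5 and 12.8 CPM in wild-type libraries 1 to 6 and 52.7, 82.8, 59.7, 59.3, 64.2 and 72.4 CPM in knockout libraries 1 to 6. The wild types were nearly equal, every knockout was more than 3 times higher than any of them, and Ccr2 had the smallest adjusted p of the list (log2 fold change 2.34, SE 0.11, edgeR adjusted p = 1.1e-08). Cd14, the co-receptor for bacterial lipopolysaccharide, rose by 1.97 and Cx3cr1, the fractalkine receptor of kidney phagocytes, by 2.06. H2-Ab1, a class II chain, had medians of 112 and 432 CPM (2.02, SE 0.16), and its loading partners H2-DMb1 and H2-DMa rose by 1.61 and 1.91. Lyz2, lysozyme of myeloid cells, was at 122 CPM in wild-type library 1, above 11.1 to 33.8 CPM in the other wild types, and at 222 to 553 CPM in knockouts. Without wild-type library 1 and knockout library 2 all 28 tested members of the macrophage and dendritic cell list were higher.

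Of 28 markers of T and natural killer cells 19 passed the filter on low counts, and 18 of these rose (median 2.43). The summed level of the list was 10.7 to 29.7 CPM in wild types and 51.9 to 240 CPM in knockouts. Foxp3, the master factor of regulatory T cells, was at 0.279, 0.332 and 0.0934 CPM in wild-type libraries 1 to 3 and at 0 in libraries 4 to 6, and at 2.56, 12.6, 1.82, 4.63, 5.26 and 3.67 CPM in knockout libraries 1 to 6. Knockout library 2 stood high, yet the groups did not overlap (log2 fold change 5.32, SE 0.69, edgeR adjusted p = 7.5e-05), and without that library and wild-type library 1 the value was 5.23. Il7r, the interleukin 7 receptor, rose by 2.92 and Cd3g, a chain of the T cell receptor complex, by 2.63. Cd8a, the co-receptor of killer T cells, did not pass the test: 0.623 to 2.52 CPM in wild types and 1.48 to 10.8 CPM in knockouts, where knockout library 2 held the top value and the other 5 were at or below 3.26 CPM. Of the 16 names in the lymphoid tissue list 14 matched a gene of the files, 7 of these passed the filter on low counts, and 3 were higher: Ltb, lymphotoxin beta (2.93), Tnfsf13b, the B cell survival factor BAFF (2.46), and Ccr7, a homing receptor (2.38). Of 18 neutrophil and mast cell genes 5 passed the filter and 3 rose, Lrg1 (1.97), Csf3r (1.75) and S100a9 (1.68).

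B cell markers depended on single libraries. The summed level of 6 defining B cell markers (among them Ms4a1, Cd79a, Cd79b, Cd22 and Pax5) was 32.3, 5.72, 2.71, 2.23, 1.73 and 3.42 CPM in wild-type libraries 1 to 6 and 15.2, 163, 4.27, 10.6, 11.3 and 8.18 CPM in knockout libraries 1 to 6. Knockout library 2 was thus over 10 times the next knockout, and wild-type library 1 was above every knockout but that one. None of the 5 markers that passed the filter on low counts was called with all 12 libraries; the log2 fold change was 2.10 for Ms4a1 (SE 1.19), 2.14 for Cd79b (SE 0.86), 2.19 for Cd22 (SE 1.08) and 2.37 for Cd79a (SE 1.14). Without knockout library 2 the log2 fold change was -0.05 for Ms4a1, and without both outlying libraries it was 2.01 for Cd22 (edgeR adjusted p = 0.00208) and 1.18 for Ms4a1 (edgeR adjusted p = 0.105).

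**Figure D3:**
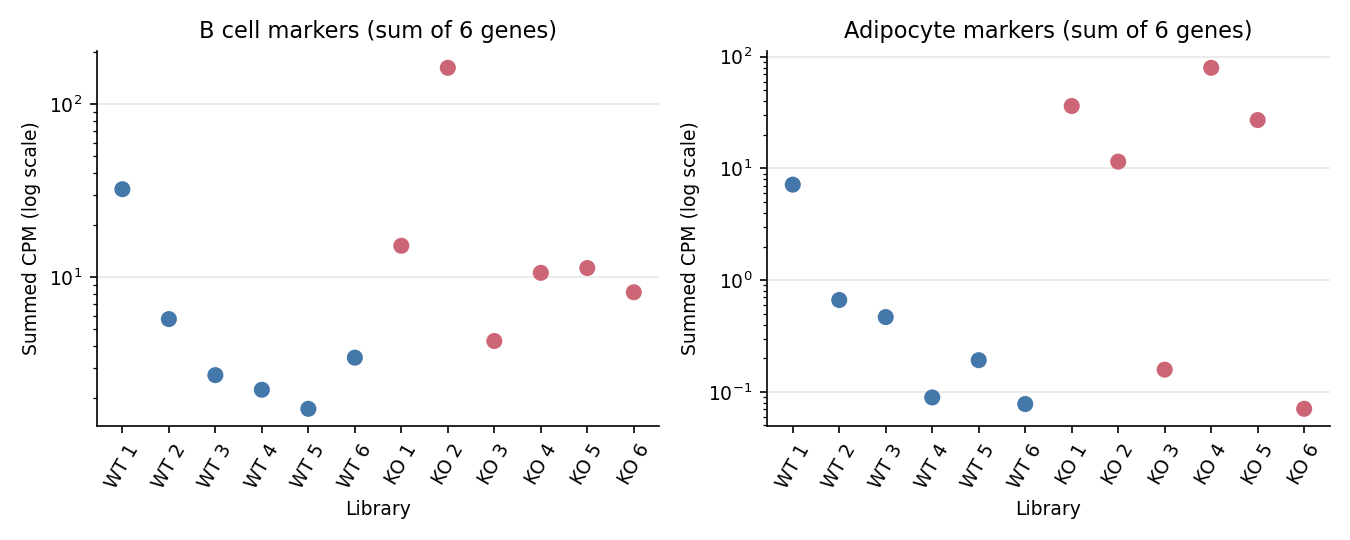
Summed CPM (vertical axes, log scale) of 6 defining B cell markers (left) and 6 defining adipocyte markers (right) in each of the 12 libraries; blue points are wild types and red points are knockouts. Knockout library 2 holds 163 CPM of B cell markers, and knockout libraries 1, 2, 4 and 5 hold 11.5 to 79.6 CPM of adipocyte markers where libraries 3 and 6 hold 0.158 CPM or less.

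Pax5 failed the filter. Over the whole B cell list, 8 of 16 tested genes were higher with all 12 libraries, 4 were higher and 1 lower without knockout library 2, and 11 of 13 tested were higher and 1 lower without both outlying libraries. Leaving out 1 library at a time gave 3 to 14 higher genes, the most without wild-type library 1 and 3 or 4 without any other single wild type, none of which was rich in B cell RNA. Ighm, the mu heavy chain, was at 179 CPM in wild-type library 1 and 7.24 to 19.5 CPM in the other wild types, and at 411, 4156, 33, 110, 98.5 and 40.6 CPM in knockout libraries 1 to 6. Its groups overlapped through wild-type library 1, and its log2 fold change moved from 4.33 (SE 1.55, edgeR adjusted p = 0.0458) to 3.44 without the outlying pair. Spib, a transcription factor of B cells and some dendritic cells, was called both ways (3.07 and 3.34), as were Blk, a B cell kinase (2.63 and 2.61), and Cd72, a co-receptor also present on myeloid cells (1.47 and 1.33). The complement receptor Cr2 went against the rest: -0.87 with all libraries, not called, and -1.30 without the pair (edgeR adjusted p = 0.0032), with 1.24 to 2.8 CPM in wild-type libraries 2 to 6 and 0.686 to 1.35 CPM in the 5 remaining knockouts.

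The count for the plasma cell list also moved with the libraries left out. With all 12 libraries 14 of 17 tested genes were higher (median 2.74), and without the pair 12 of 16 (median 2.08). Leaving out 1 library at a time gave 7 to 15 higher genes, the fewest without wild-type library 6. Igha, the heavy chain of immunoglobulin A, was at 145, 136, 30.6, 111, 93.8 and 53.3 CPM in wild-type libraries 1 to 6 and at 470, 1619, 159, 654, 549 and 360 CPM in knockout libraries 1 to 6. Its groups did not overlap, and the log2 fold change was 2.74 (SE 0.56, edgeR adjusted p = 0.00277) with all libraries and 2.37 without the pair. Irf4, a factor of plasma cells and activated T cells, rose by 2.62, or 1.85 without the pair, and Sdc1, a plasma cell surface marker that tubule epithelium also makes, by 1.62 or 1.44. Of 40 immunoglobulin variable, diversity and joining segments tested, 26 were higher, and 28 had over 50% of their summed knockout CPM in a single library. Segments and constant chains of these families are near copies of one another, so how counts were divided among them is uncertain.

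**Figure D4:**
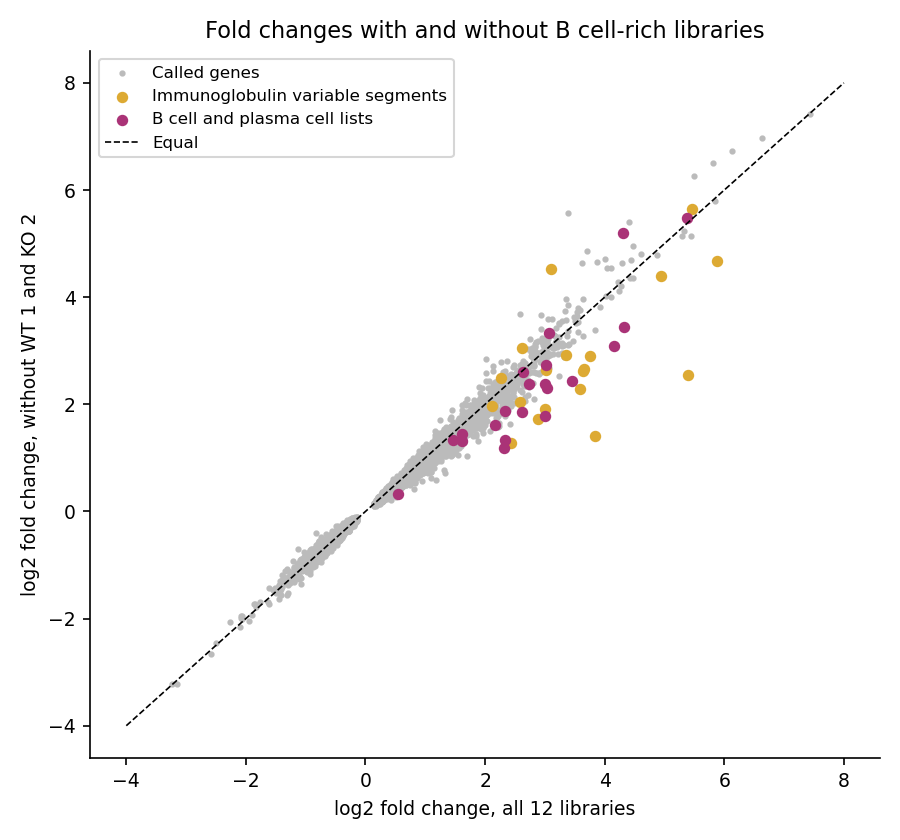
Log2 fold change of each gene called with all 12 libraries (horizontal axis) against its value without wild-type library 1 and knockout library 2 (vertical axis), for the called genes that also passed the filter without them. Grey points are all such genes, yellow immunoglobulin variable, diversity and joining segments and purple members of the B cell and plasma cell lists. Most genes follow the dashed line of equality, and most yellow and purple points lie below it.

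Over all genes tested, over 50% of the summed knockout CPM came from knockout library 2 for 69 of the 15443 genes (0.447%). Of these 69 genes, 27 were immunoglobulin segments. Such a share came from knockout library 4 for 2 genes (Gapdh and Gm10800) and from library 1 for 1 immunoglobulin segment. It came from knockout libraries 3, 5 or 6 for none. The fold change of a called gene moved by over 1.5 times without knockout library 2 for 60 genes (0.945% of calls) and without wild-type library 1 for 52 (0.819%), against at most 10 for any other library. Without the pair of B cell-rich libraries 5248 genes were called (33.9%), and of the original calls 2816 higher (84%) and 2282 lower (76.2%) were called again, none with the other sign. Called genes kept their call and direction in all 12 fits that left out 1 library for 4971 of 6347 (78.3%).

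Adipocyte RNA was spread over more libraries. The 6 defining markers (Adipoq, Lep, Plin1, Cidec, Retn and Adrb3) summed to 7.16, 0.664, 0.467, 0.0891, 0.192 and 0.0778 CPM in wild-type libraries 1 to 6 and to 36.2, 11.5, 0.158, 79.6, 27.1 and 0.0705 CPM in knockout libraries 1 to 6. Knockout libraries 3 and 6 were as low as wild-type libraries 2 to 6, so the groups overlapped, and all 6 markers failed the filter on low counts and were not tested. Lep was at 0 in 8 of the 12 libraries. Ucp1, a marker of brown fat, was at 37.1 CPM in knockout library 4 and 26.6 CPM in library 5, and at or below 4.73 CPM in the other 10. Of 14 tested members of the wider adipocyte list 4 were higher and 3 lower. The number higher was 11 of 20 tested without knockout library 3 and 10 of 20 without knockout library 6. It was 3 of 14 without either knockout library 4 or 5. Leaving out any 1 of wild-type libraries 2 to 6 also let 20 members pass the filter, with 4 to 8 higher. The median ranged from 0.04 to 0.92 over the 12 fits without 1 library, which did not all test the same members. Lpl, lipoprotein lipase, which the kidney also makes in quantity, fell from a median of 767 to 393 CPM (-0.97). Plin4, a lipid droplet coat protein, was at 1.01 to 3.53 CPM in wild types and 10.9, 3.26, 2.21, 18.5, 9.78 and 2.12 CPM in knockout libraries 1 to 6, following the markers library by library. Its log2 fold change was 2.02 with all libraries (SE 0.57, edgeR adjusted p = 0.0132) and 0.43 without the 5 libraries above 5 CPM of markers (edgeR adjusted p = 0.508). Lipe, the hormone-sensitive lipase, went from 0.46 to 0.12 and Thrsp, a lipogenic factor, from 1.61 to -0.16 in the same fit, both no longer called. Slc36a2, an amino acid transporter of brown fat and tubule, was also highest in knockout libraries 4 and 5, but rose by 3.20 in that fit (edgeR adjusted p = 0.00406), against 4.44 with all libraries.

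**Figure D5:**
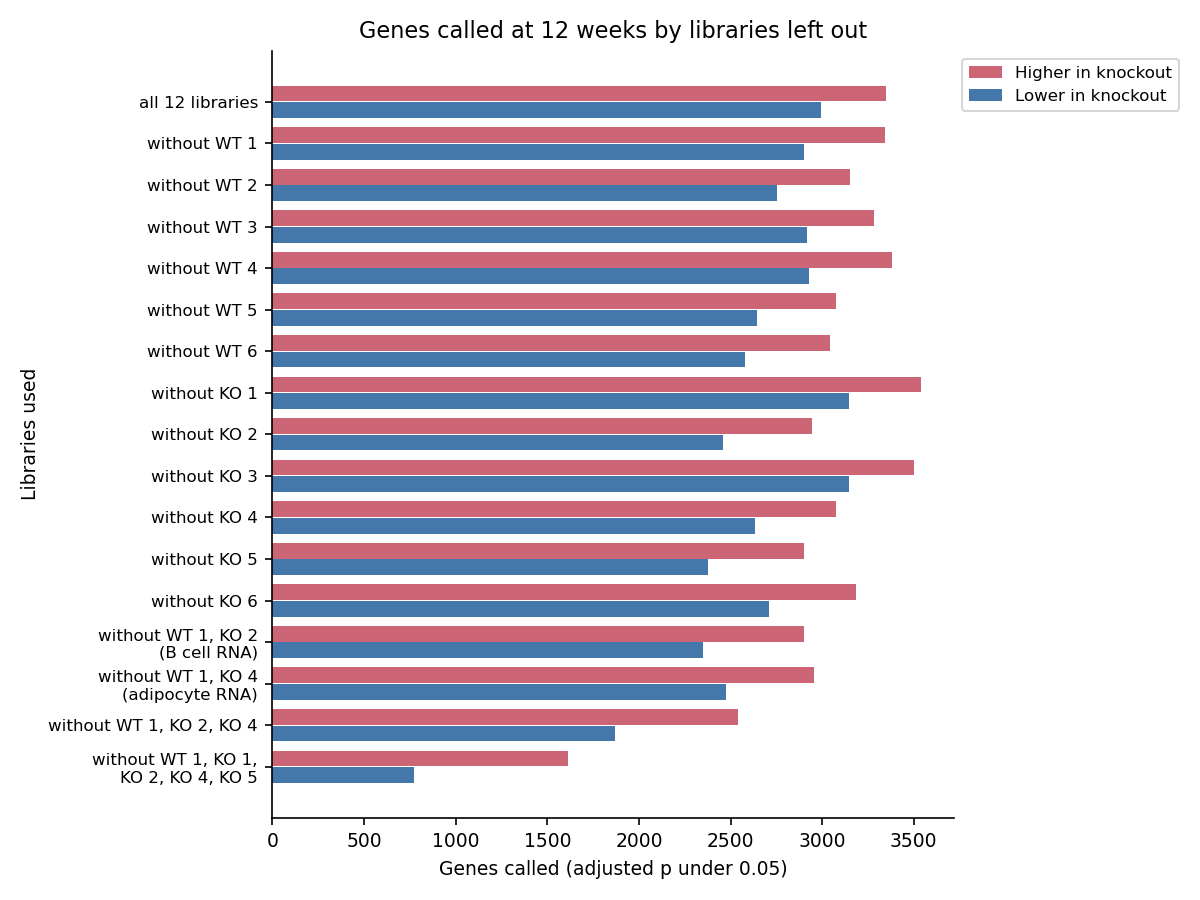
Number of genes called higher (red) or lower (blue) in knockouts (horizontal axis, adjusted p under 0.05) with all 12 libraries, without each library in turn, and without the libraries rich in B cell or adipocyte RNA. Leaving out 1 library leaves 5280 to 6686 calls in all, and leaving out the 5 libraries above 5 CPM of adipocyte markers leaves 1615 higher and 774 lower.

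Leaving out the libraries above 3 times their group's median of adipocyte markers (wild-type library 1 and knockout library 4) left 5432 genes called (35.2%), with 2854 of the higher (85.2%) and 2364 of the lower calls (78.9%) called again. Leaving out all 5 libraries above 5 CPM left 2 knockout and 5 wild-type libraries and 2389 calls (15%); 1547 of the higher (46.2%) and 752 of the lower calls (25.1%) were called again, and 4 genes changed sign without being called (Thrsp, Hebp2, Clec2i and Gm11131, named after their values were seen, as were Gapdh and Gm10800). With only knockout libraries 3 and 6 left, fewer samples and absent adipocyte RNA cannot be told apart as reasons for lost calls. In that fit 29 of 32 injury genes, 27 of 28 macrophage and dendritic cell genes, all 11 class II genes and 29 of 36 matrix genes were higher, while 2 of 16 plasma cell genes and 1 of 33 respiratory chain genes were called.

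Extracellular matrix genes rose in 35 of 36 tested members (median 1.53, 23 without overlap). Col3a1 and Col1a1, the main fibrillar collagens of scar tissue, rose from medians of 39.4 to 346 CPM (2.99, SE 0.36) and of 24.3 to 171 CPM (2.76, SE 0.41). Knockout library 1 was the lowest knockout for both, at 155 and 58.8 CPM, and wild-type library 1 the highest wild type, at 79.9 and 42.9 CPM. Lox, which cross-links collagen, was at 2.65 to 5.86 CPM in wild types and 18.1 to 44.5 CPM in knockouts (2.82, SE 0.24, edgeR adjusted p = 3.4e-06). Tgfbi, an adhesion protein induced by TGF beta, rose by 1.70 and Mgp, a calcification inhibitor of the matrix, by 2.22.

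Proteases and their inhibitors were higher in 17 of 20 tested genes and lower in 2. Mmp7, matrilysin of injured epithelium, was at 0.56 CPM or less in wild types and between 5.33 and 8.54 CPM in knockouts (5.30, SE 0.42), and Timp1, an inhibitor of such proteases, at 0.311 to 3.07 and 14.4 to 24.2 CPM (4.04, SE 0.37). Timp3, the abundant inhibitor of the tubule, went the other way, with overlapping groups and a fold change of -0.48. Timp3 made up most of the summed level of the list, which was 2211 to 3161 CPM in wild types and 2147 to 2678 CPM in knockouts. Genes of mural cells and myofibroblasts were higher in 11 of 15 (median 0.85), among them Thy1 (2.55), Pdpn (1.92), Gli1 (2.22) and Acta2, smooth muscle actin (1.10). Without wild-type library 1 and knockout libraries 2 and 4, 8 of the 15 were higher (median 0.73). Without the 5 libraries above 5 CPM of adipocyte markers 3 were higher (median 0.66), with fewer samples in the test. Of TGF beta and Wnt genes 14 of 23 were called, all higher, led by the activin chains Inhbb (1.80, SE 0.15) and Inhba (3.28, SE 0.33) and by Wnt4 (2.72, SE 0.34), a Wnt ligand of tubule formation.

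Cell cycle genes were higher in 28 of 32 tested (median 1.45). Cdk1, the kinase that starts mitosis, was at 0.385 to 1.49 CPM in wild types and 3.07 to 9.55 CPM in knockouts (2.39, SE 0.33), and Mcm3, a part of the replication helicase, rose by 1.31 and Cenpf, a kinetochore protein, by 1.93. Mki67, a marker of dividing cells, was at 51.5 CPM in knockout library 2, the library richest in B cell RNA, and at 13 to 24.3 CPM in the other knockouts, against 3.46 to 6.06 CPM in wild types. Its rise was 2.23 with all libraries and 1.86 without the outlying pair. Among p53 targets and senescence genes 14 of 20 were higher and 1 lower. Cdkn1a, the cell cycle inhibitor p21, rose to nearly one level in all knockouts: 28.6, 28.6, 28.5, 30, 27.4 and 24.1 CPM, against 3.89 to 9.95 CPM in wild types (1.85, SE 0.17, edgeR adjusted p = 3.5e-06). Eda2r, a p53-induced receptor of the TNF receptor family, rose by 2.30 and Btg2, which slows growth, by 1.22, while Glb1, the lysosomal enzyme behind the usual senescence stain, fell by 0.43. Of 14 immediate early genes 10 were higher and 1 lower. Atf3, a stress factor, rose by 2.62, Fosl2, an AP-1 subunit, by 1.47 and Klf6 by 1.09, while Dusp1, a phosphatase that ends kinase signals, fell by 0.44 with overlapping groups (edgeR adjusted p = 0.0426), a call that held in 5 of the 12 fits without 1 library.

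Stress of the endoplasmic reticulum was covered by another list. Of 20 names in the list of unfolded protein and integrated stress responses 19 matched a gene and were tested, 3 of them were higher and 2 lower, with a median of 0.11, and other scalings gave 3 to 6 higher and 2 to 3 lower. Asns, asparagine synthetase, rose by 1.14 (2.26 to 4.89 CPM), Sdf2l1 by 0.72 and Phgdh, the first enzyme of serine synthesis, by 0.81, though Phgdh was not called without the B cell-rich pair (0.59, edgeR adjusted p = 0.0733), while Dnajc3, a chaperone, fell by 0.37. In oxidant defence 7 of 15 were lower and 3 higher. Gpx3, the plasma glutathione peroxidase that the proximal tubule secretes, fell from a median of 19036 to 11030 CPM (-0.78, SE 0.14, edgeR adjusted p = 0.00066), with Sod2 (-0.44) and Gclm (-0.46) also lower and G6pdx, the first enzyme of the pentose phosphate path, higher by 0.30.

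Segments beyond the proximal tubule differed from one another. In the thick ascending limb 5 of 13 tested genes were lower and 2 higher. Umod, which encodes uromodulin, was at 1603 to 2505 CPM in wild types and 1272 to 3241 CPM in knockouts (0.16) and did not pass the test. Egf, the growth factor made there, fell by 0.81 with overlapping groups (849 to 1332 against 379 to 942 CPM), and Cldn10 by 0.60, while Cldn16, a magnesium channel protein, rose by 0.71. In the distal convoluted and connecting tubule 9 of 14 were lower and 1 higher: Pvalb, parvalbumin, by 1.20, Klhl3, a regulator of salt transport, by 0.76 and Fxyd2, a sodium pump subunit, by 0.47, while the calcium channel Trpv5 rose by 0.43, a call that held in 9 of the 12 fits without 1 library. Among principal cell genes 7 of 13 were lower and 1 higher, led by the water channel Aqp3 (median 92 to 40.4 CPM, -1.11, SE 0.16), Hsd11b2, which shields the aldosterone receptor from cortisol-like steroids (-0.50), and that receptor, Nr3c2 (-0.44). Aqp4 was at 57.3 to 108 CPM in wild types and 30.4, 7.37, 56.6, 23.7, 13.1 and 40.1 CPM in knockout libraries 1 to 6, so the knockouts spread widely and the highest nearly reached the lowest wild type. Elf5, a transcription factor of this cell, rose by 1.43 at low level.

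Of 16 tested genes of intercalated cells, which secrete acid or base, 11 were lower and 1 higher (median -0.46). Slc26a4, pendrin, the chloride-bicarbonate exchanger of base-secreting cells, was at 56.8, 50.4, 58.7, 58.7, 48.1 and 65.8 CPM in wild-type libraries 1 to 6 and 25.1, 18.4, 23.5, 24.1, 21 and 19.3 CPM in knockout libraries 1 to 6. The groups were compact and far apart (log2 fold change -1.36, SE 0.09, edgeR adjusted p = 4.2e-07). Insrr, an alkali-sensing receptor of the same cells, fell by 1.40 and Slc4a9, their basolateral transporter, by 1.03, while the transcription factor Dmrt2, known from acid-secreting cells, rose by 0.59.

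In the glomerulus and vessels genes moved in both directions. Of 17 podocyte genes 9 were higher and 4 lower, but without the B cell-rich pair 4 were higher and 5 lower. Plce1 (0.64), Nes (0.54) and Tcf21 (1.01) rose, and the collagen chain Col4a3 fell by 0.47. Tcf21, which is also a marker of interstitial fibroblasts, had overlapping groups. Of 18 endothelial genes 4 were lower and 1 higher, with a median of -0.04. The share lower was near that of all genes (22.2% against 19.4%), and the share higher was below it (5.56% against 21.7%). Kdr, the main receptor for the growth factor VEGF, was at 94.2 to 132 CPM in wild types and 49.3 to 80 CPM in knockouts (-0.78, SE 0.11, edgeR adjusted p = 6.7e-05), and Flt1, a related receptor, fell by 0.47 and Ehd3, a marker of glomerular endothelium, by 0.43. Vwf, a clotting factor carrier, rose by 1.03. Of 9 renin-angiotensin genes 3 were lower, Ace (-0.67), Agtr1a (-0.46) and Atp6ap2 (-0.36), and Agt was higher (0.33), a call that held in 5 of the 12 fits without 1 library.

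Mitochondrial transcripts fell. Of 13 genes encoded by the mitochondrial genome 11 were lower (median -0.60), with 7 lower without either knockout library 2 or 5, up to 12 in the other fits without 1 library, and 8 without the B cell-rich pair. Of 33 nuclear genes of the respiratory chain 30 were lower, each by a small amount (median -0.36). mt-Nd2, a subunit of complex I, was at 12369 to 16113 CPM in wild types and 7539 to 9935 CPM in knockouts (-0.78, SE 0.11, edgeR adjusted p = 7.7e-05), with no overlap, and mt-Nd1 fell by 0.61 and mt-Nd4 by 0.72. Ndufa10 (-0.50), Cox5b (-0.37) and Sdhc (-0.41) stood for the nuclear side. Of the 33 genes 23 were lower without the B cell-rich pair and 10 without knockout library 4 as well, while the median was between -0.34 and -0.23 in the fits that left out rich libraries. Fatty acid oxidation had 22 of 37 genes lower and 5 higher. Acads (-0.54) and Hadh (-0.56), which carry out steps of it in mitochondria, fell. Angptl4, a lipase inhibitor induced by fatty acids, rose by 1.32 from a median of 20.5 to 48 CPM with no overlap, and Pdk4, which spares glucose, by 1.06. Without the 5 libraries above 5 CPM of adipocyte markers, Angptl4 was still called at 1.37 and Pdk4 was called too.

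Of 27 genes of cholesterol synthesis and handling 6 were higher and 6 lower, close to the share of all genes, and 10 were lower without knockout library 3. Those that rose included Apoe, the lipoprotein component also made by macrophages, from a median of 220 to 708 CPM (1.68, SE 0.18, edgeR adjusted p = 1.3e-05), the exporter Abca1 (0.69) and the lipoprotein receptor Scarb1 (0.62). Among 21 lipogenic genes 8 were lower and 1 higher, or 4 higher without knockout library 6. Lpin1 (-0.56), Me1 (-0.58) and Dgat2 (-0.58), the last being an enzyme of triglyceride synthesis, fell, and the elongase Elovl6 rose by 0.60. Of 30 lysosome and autophagy genes 9 were lower, among them Lipa (-0.46) and Atp6v0d1 (-0.31), and 4 higher, led by Scarb2 (0.51), the carrier of a lysosomal glucosidase.

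Whether the genotype effect at 12 weeks differed from that at 2 weeks was tested over all 24 libraries. Of 17286 genes tested, 30 were called (0.174%), 20 with a higher (0.116%) and 10 with a lower effect (0.0579%) at 12 weeks. On simulated counts this test found 57 of 99 genes whose effect differed by 1 on the log2 scale and 86 of 96 that differed by 2. A gene that was not called may thus still differ. Lrp2 was not among them (difference -0.03, SE 0.29). Slc13a1 rose by 1.54 at 2 weeks and by 0.41 at 12 weeks in this fit, a difference of -1.13 (SE 0.18, edgeR adjusted p = 0.00292); its knockout mean was 662 ± 102 CPM (SD, n = 6) at 2 weeks and 396 ± 74.1 CPM at 12 weeks, over wild-type means of 228 ± 36.7 and 290 ± 39.2 CPM. Gpc3, a glypican, showed the same order (1.84 and 0.81, difference -1.03). Among the called genes named, Foxp3 had the highest positive difference (4.10, SE 0.73, edgeR adjusted p = 0.00776), from 1.22 at 2 weeks to 5.31 at 12 weeks. Its wild types were near 0 at both durations and lower at the longer one: 0.388 ± 0.11 CPM at 2 weeks and 0.117 ± 0.151 CPM at 12 weeks (SD, n = 6). Its knockouts were at 0.939 CPM at 2 weeks and 5.09 CPM at 12 weeks, so both groups entered the difference. Coch, Tnfrsf18, which encodes the regulatory T cell receptor GITR, Camk4 and the antisense RNA Slc13a2os followed, at 3.37, 3.21, 3.14 and 2.96. Coch fell at 2 weeks (-2.04), and its rise at 12 weeks was called in 3 of the 12 fits without 1 library. Ppp4r4 (-0.89), Acat3 (-0.80) and Igsf5 (-0.59) were the other called genes named with a negative difference. For Coch the wild types were at 11 ± 1.89 CPM at 2 weeks and 1.79 ± 1.43 CPM at 12 weeks (SD, n = 6), and the knockouts at 2.67 and 4.54 CPM. For Tnfrsf18, Camk4 and Slc13a2os the wild types were also lower at the longer duration: 3.22 ± 0.712, 5.41 ± 0.905 and 6.62 ± 1.9 CPM at 2 weeks and 0.233 ± 0.145, 0.267 ± 0.223 and 0.26 ± 0.24 CPM at 12 weeks (SD, n = 6), with the knockouts at 3.44, 4.89 and 6.19 CPM at 2 weeks. Every library of the 12-week set had counts for Gm42418, a locus that overlaps ribosomal RNA (0.496 to 3.54% of counts), and every library of the 2-week set had 0. Diet duration and the making of both sets thus cannot be told apart. This holds for level changes between the sets and for the differences in genotype effect.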

How the data were processed

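Deposited raw read counts per Ensembl gene were used for 24 mouse kidney libraries. The authors made these counts with fastp, STAR 2.5 and HTSeq 0.6.1 on mm10, per the submitters' processing notes, with no strand setting stated. GENCODE annotation held 54495 of the 54532 identifiers. Genes were kept where filterByExpr passed them in the 12 libraries of the 12-week diet. It asks for 15 counts in total and a CPM matching about 10 counts in at least as many libraries as the smaller group held. Counts were scaled by TMM (factors 0.885 to 1.151) and tested with edgeR 4.0.16 (R 4.3.3) by its quasi-likelihood test (robust, two-sided). P-values were adjusted over all genes tested after Benjamini and Hochberg, and genes were called at an adjusted p under 0.05. Totals of 11327983 to 15236159 counts limit precision for genes near 1 CPM. The difference between durations was an interaction in 1 fit of all 24 libraries. CPM use the scaled library size. On simulated counts the test found 79 of 99 genes changed by 1 and 96 of 97 changed by 2 on the log2 scale at 12 weeks, with 3 false calls among 15271 genes tested. The simulation changed few genes, equally up and down, and drew counts from the fitted spread without outlying libraries. In the real libraries 41.1% of genes were called and the large changes were mostly upward. The simulated rates therefore need not hold for these data.

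The named genes are Lrp2, the 10 called genes with the largest fold change each way (mean of at least 1 CPM, no overlap, no predicted genes or receptor segments), per list at most 3 called genes in its main direction and 1 in the other, by smallest adjusted p, the defining markers of B cells and adipocytes, and the 5 interaction genes each way. Dab2, Cubn, Slc34a1, Slc6a19, Hnf4a, Cyp27b1, Kl, Trpv6, Havcr1, Spp1, Krt20, Itgb6, Cxcl2, Isg15, C3, Lyz2, Cd8a, Ighm, Cr2, Ucp1, Thrsp, Col1a1, Col3a1, Acta2, Mki67, Umod and Pdk4 fall outside this rule and were chosen after their values were seen. A few genes picked by this rule are left out and not reported here. The libraries compared and the gene lists were chosen with earlier results of these data known. Alternatives were other scalings (RLE, upper quartile), DESeq2 1.42.0, other filters, a replicate block and leaving out libraries.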

Additional observations from a re-analysis of the deposited data

Results flagged for a closer look

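In 408 checks, each of 1 gene or list in 1 group of 6 libraries, the highest or lowest library stood apart from the other 5 by Dixon's criterion 56 times; chance alone flags about 1 in 20 groups. Knockout library 2 was the high one in 25 of them and wild-type library 1 in 19.

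In knockout library 2 the level of B cell and plasma cell genes was 32.8 CPM for Cd22, 39 CPM for Cd79a, 20.7 CPM for Cd79b, 28.9 CPM for Ms4a1, 10.6 CPM for Pax5, 10.4 CPM for Blk, 19.9 CPM for Spib, 4.27 CPM for Cr2, 4156 CPM for Ighm, 1619 CPM for Igha and 29.5 CPM for Irf4. T cell and lymphoid genes were also highest there: 12.6 CPM for Foxp3, 14.5 CPM for Cd3g, 10.8 CPM for Cd8a, 18.9 CPM for Il7r, 4.66 CPM for Camk4, 5.51 CPM for Ccr7 and 30.7 CPM for Ltb, with 240 CPM for the summed T and natural killer cell list. The same library held 768 CPM of H2-K1, 754 CPM of H2-D1, 17.4 CPM of Isg15, 28.1 CPM of Relb, 9.55 CPM of Cdk1 and 51.5 CPM of Mki67, and was the low one for Ppp4r4 (3.96 CPM) and Slc4a9 (45 CPM). The part of B cell RNA in the levels of the other genes was not tested.

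Wild-type library 1 was high for B cell genes, at 6.88 CPM of Cd22, 6.79 CPM of Cd79a, 5.39 CPM of Ms4a1, 2.88 CPM of Pax5, 1.67 CPM of Blk, 2.79 CPM of Spib and 179 CPM of Ighm. It was high for adipocyte genes too, at 1.39 CPM of Adipoq, 0.837 CPM of Adrb3, 1.39 CPM of Cidec, 0.372 CPM of Lep, 2.32 CPM of Plin1, 0.837 CPM of Retn and 1.67 CPM of Ucp1. C3 (82.3 CPM), Lyz2 (122 CPM), Cldn10 (279 CPM), Ctxn3 (14 CPM) and Pvalb (37.4 CPM) were also highest there.

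Single genes stood apart in other libraries. Among knockouts these were Lpin1 in library 1 (66.6 CPM), Eda2r in library 3 (6.33 CPM) and, in library 4, Lipe (40.6 CPM) and Gapdh (85.8 CPM, against 12 to 14.7 CPM in the other knockouts). Among wild types they were Havcr1 in library 2 (16.3 CPM), Fcrls (1.03 CPM) and mt-Nd1 (15272 CPM, low) in library 3, Lhx1 in library 4 (31.6 CPM), H2-DMa in library 5 (4.62 CPM, low) and Klkb1 in library 6 (1.32 CPM, low).

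The genotype effect differed between 12 and 2 weeks, on the log2 scale, by 4.10 for Foxp3, 3.37 for Coch, 3.21 for Tnfrsf18, 3.14 for Camk4, 2.96 for Slc13a2os, -1.13 for Slc13a1, -1.03 for Gpc3, -0.89 for Ppp4r4, -0.80 for Acat3 and -0.59 for Igsf5, each past the threshold in the edgeR interaction test. For these differences diet duration cannot be told apart from the making of the 12-week and 2-week sets.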

How the results depend on the processing

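With 1 library left out in turn, 5280 to 6686 genes were called, 2901 to 3540 higher and 2379 to 3146 lower, the fewest without knockout library 5. A minimum log2 fold change of 1 in the test left 588 calls (569 higher, 19 lower), and testing only the 8720 genes with no gene on the opposite strand left 3620 (1929 and 1691), since fewer genes were tested. Without the 5 libraries above 5 CPM of adipocyte markers 2389 were called (1615 and 774), with fewer samples in the test, and without wild-type library 1 and knockout libraries 2 and 4 1869 were lower. These adipocyte settings were chosen after seeing the data: the planned removal by the whole adipocyte list, alone or combined with B cell-rich libraries, picked no further library and was not run for this comparison. In the interaction DESeq2 called 154 genes (91 higher, 63 lower). The lower calls were 6 with no filter, 5 with a replicate block and 5 without the 12-week pair rich in B cell RNA. No library was left out of the interaction for adipocyte RNA. The cause of these changes was not tested. Upper-quartile scaling moved the share of calls that were higher from 52.8 to 57.5%. The value changed sign for Ms4a1 (-0.05) without knockout library 2, against 3.34 without wild-type library 1, and it did so for Itgb6 (0.21), Thrsp (-0.16), Hebp2 (-0.15), Clec2i (-0.10), Gm11131 (-0.09) and Gm10800 (0.02) without the libraries above 5 CPM of adipocyte markers. Gapdh, not called with all libraries (0.52), was at -0.41 without knockout library 4 and at most 0.67 without another, at -0.48 and -0.38 without the libraries above 3 times the median and above 5 CPM of adipocyte markers and at -0.45 without those and the B cell-rich ones. Gm10800, not called either, ranged from -1.03 to 0.34 without 1 library. Of 182 called genes named, 132 were called in every setting but the minimum fold change.

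Same-numbered libraries did not deviate together (correlations -0.155 to 0.19, only pair 2 matching its own number best), so the numbers were not taken to pair mice; with a replicate block 5742 genes were called (3053 higher, 2689 lower) and 21 in the interaction.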
